A study of Mus musculus with 4 samples.

Results

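Camk2d and 3 genes that act beside it, Camk2g, Calm2 and Calm3, were examined in single Ly6C-high monocytes of mouse bone marrow at a young and an old age. These 4 genes of the 27998 in each count matrix were chosen because Camk2d was among the clearest rises in old mice, so the age values of all 4 genes are given as a description and without a test. Marrow cells of each wild-type C57BL/6 mouse carried their own hashtag antibody, were pooled by sex, and were sorted as Ly6G- CD11b+ CD115+ Ly6C-high cells. The male pool held 5 young mice of 14 weeks and 5 old mice of 27 months, and the female pool held 5 young mice of 15 weeks and 5 old mice of 26.5 months. Sex and experiment cannot be told apart here, and each mouse is 1 replicate. The values were counts of unique molecular identifiers (UMIs), summed per mouse and given as CPM, the mouse's count scaled to 1000000 UMIs in all.

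Calmodulin is a small protein that binds calcium and then switches on a range of partner enzymes. Separate genes, among them Calm2 and Calm3, encode the same calmodulin protein. CaMKII, a serine and threonine kinase assembled from many subunits, is among those enzymes: calcium-loaded calmodulin opens each subunit, and neighbouring subunits then phosphorylate each other on a threonine that keeps the kinase active after calcium has fallen. Of the 4 subunit genes, Camk2a and Camk2b are best known from neurons, whereas Camk2d and Camk2g are used in many tissues, including myeloid cells.

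On GRCm38, Camk2d lies on chromosome 3 (chr3:126596302-126846326, plus strand) and Camk2g on chromosome 14 (chr14:20734875-20794088, minus strand). Calm2 lies on chromosome 17 (chr17:87433412-87446935, minus strand) and Calm3 on chromosome 7 (chr7:16915379-16924114, minus strand). The coding stretches of the annotated principal transcripts (GENCODE M21) are shown because the members form 2 pairs of like genes, and a reader needs to see how far their letters differ. The capitals in the CaMKII pair mark the codons of arginine, glutamine, glutamate and the autophosphorylated threonine, which is residue 287 in both, and the stretches cover coding bases 826 to 885.

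Camk2d: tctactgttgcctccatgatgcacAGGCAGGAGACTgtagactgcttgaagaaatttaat

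Camk2g: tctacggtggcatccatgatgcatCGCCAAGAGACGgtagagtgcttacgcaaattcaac

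Over 1434 aligned coding bases Camk2d and Camk2g were 77.1% identical, and over 478 aligned residues they were 88.1% identical. The capitals in the calmodulin pair mark the 18 bases that differ between Calm2 and Calm3 in coding bases 1 to 120.

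Calm2: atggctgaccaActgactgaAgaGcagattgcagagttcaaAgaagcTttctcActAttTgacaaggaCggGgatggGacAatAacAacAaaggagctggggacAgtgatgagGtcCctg

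Calm3: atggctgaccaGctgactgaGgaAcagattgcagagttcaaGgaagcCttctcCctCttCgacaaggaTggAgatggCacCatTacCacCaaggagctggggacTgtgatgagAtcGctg

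Over all 447 coding bases Calm2 and Calm3 differed at 78, yet both translate to the same 149 residues. In the last 400 bases of each principal transcript, near where a 3′ tag library takes its reads, none of the 4 members shared any of its 370 words of 31 bases with another annotated gene. The reads of each member can therefore be told apart there.

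Depth differed by pool and by age. The analysed cells numbered 701 from young and 526 from old males, and 3632 from young and 3009 from old females, and the 2 pools had 0 cell barcodes in common. The median UMIs per cell of a mouse ran from 3805.5 to 4455.5 in young males, 4489.5 to 8844 in old males, 7978 to 8990 in young females and 9699.5 to 13033 in old females. Cells of old mice thus held more UMIs, although both ages of a sex were in the same pool, and the reason was not tested. More UMIs per cell raise any share of cells with a UMI, and shares are given below also for cells thinned to 2000 UMIs. Of 5656 genes tested in males, 0 were called by edgeR's quasi-likelihood test (Benjamini-Hochberg adjusted p under 0.05), 618 (10.9%) passed an unadjusted p of 0.05, and the alternative DESeq2 fit called 22. In females 345 of 10074 genes were called, 204 (2.03%) of them higher in old mice. All 6 markers of mature Ly6C-high monocytes were detected in both pools. So were all 6 neutrophil markers in both pools and all 6 basophil markers in males, so detection alone does not tell cell types apart. Old female 1 stood apart, with MHC-II RNA in 71.4% of its cells against 14.1% to 21.9% in the other old females and 11.3% to 12.7% in the young (thinned cells).

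The CaMKII subunit delta gene, Camk2d, was 1.96 times as high in old as in young females. Its level was 49.9, 49.3, 45.6, 51.0 and 50.8 CPM in the 5 young females and 101, 93.8, 90.2, 110 and 89.3 CPM in the 5 old females. Every old female was above every young one, and the young mice lay close together. Means were 49.3 ± 2.19 CPM (SD, n = 5) in young and 96.9 ± 8.59 CPM (SD, n = 5) in old females, a log2 fold change of 0.97 (SE 0.06). Leaving out old female 1 gave a log2 fold change of 0.96. Among all genes tested in females, 2.83% had every old mouse above every young one, and 58 of the 10074 had a larger log2 rise than Camk2d.

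In males Camk2d had a log2 fold change near the female value, with a far wider spread between mice. Its level was 56.8, 44.1, 13.1, 32.7 and 4.94 CPM in the 5 young males and 28.9, 100.4, 87.99, 50.1 and 36.3 CPM in the 5 old males. The groups overlapped: young male 1 was above old males 1, 4 and 5, and 2 old males (2 and 3) exceeded every young male. These levels rest on 3 to 52 UMIs per young male and 12 to 66 per old male. The exact Poisson 95% interval, which covers counting error only, was 1.02 to 14.4 CPM in young male 5 and 42.4 to 74.5 CPM in young male 1, so these mice of the same group differed by more than counting error. Means were 30.3 ± 21.4 CPM in young and 60.7 ± 31.8 CPM in old males (SD, n = 5), with a log2 fold change of 0.93 (SE 0.42). That is 0.04 below the female value, with an SE of the difference of 0.43, so neither a like nor a much smaller or larger change in males can be read from these mice. Of the genes tested in males, 0.99% had every old mouse above every young one.

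The gamma subunit gene, Camk2g, showed no such step in females. Young females had 17.8, 16.4, 20.5, 15.9 and 19.2 CPM and old females 16.4, 19.5, 17.1, 20.02 and 20.03 CPM. The ages overlapped, with a log2 fold change of 0.09 (SE 0.09), which came to 0.38 with cells thinned to 2000 UMIs. In males Camk2g had 1 to 12 UMIs per mouse, too few to enter the fit. Its mean was 6.28 ± 3.93 CPM in young and 7.22 ± 3.15 CPM in old males (SD, n = 5), and no difference was detectable at this depth.

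The calmodulin genes stayed close to their young levels in old females. Calm2 was at 495, 496, 509, 492 and 507 CPM in young females and at 432, 524, 497, 447 and 474 CPM in old females. The old mice straddled the young ones and spread more widely, and the log2 fold change was -0.07 (SE 0.04). Calm3 was at 342, 320, 334, 332 and 333 CPM in young females and at 313, 365, 338, 314 and 326 CPM in old females, again overlapping. Its mean was 332 ± 7.99 CPM in young and 331 ± 21.4 CPM in old females (SD, n = 5), with a log2 fold change of 0.00 (SE 0.04).

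In males Calm2 ran from 678 to 840 CPM in the young and from 630 to 1015 CPM in the old. Calm3 ran from 272 to 344 CPM in the young and from 298 to 399 CPM in the old. Both genes overlapped between the ages, with log2 fold changes of 0.10 (SE 0.11) for Calm2 and 0.12 (SE 0.10) for Calm3. These came to 0.0088 and 0.054 without old male 4, and to 0.27 and 0.064 with thinned cells. Old male 4, the mouse with the fewest cells (49) and the deepest ones, was the highest for both. Of its cells, 23 lay in the male NeuMo-like cluster described below and 21 in the one led by Nusap1 and Cenpf. Its Calm2 was at 617 and 1545 CPM in these clusters. The part of this makeup in its levels was not tested.

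**Figure D1:**
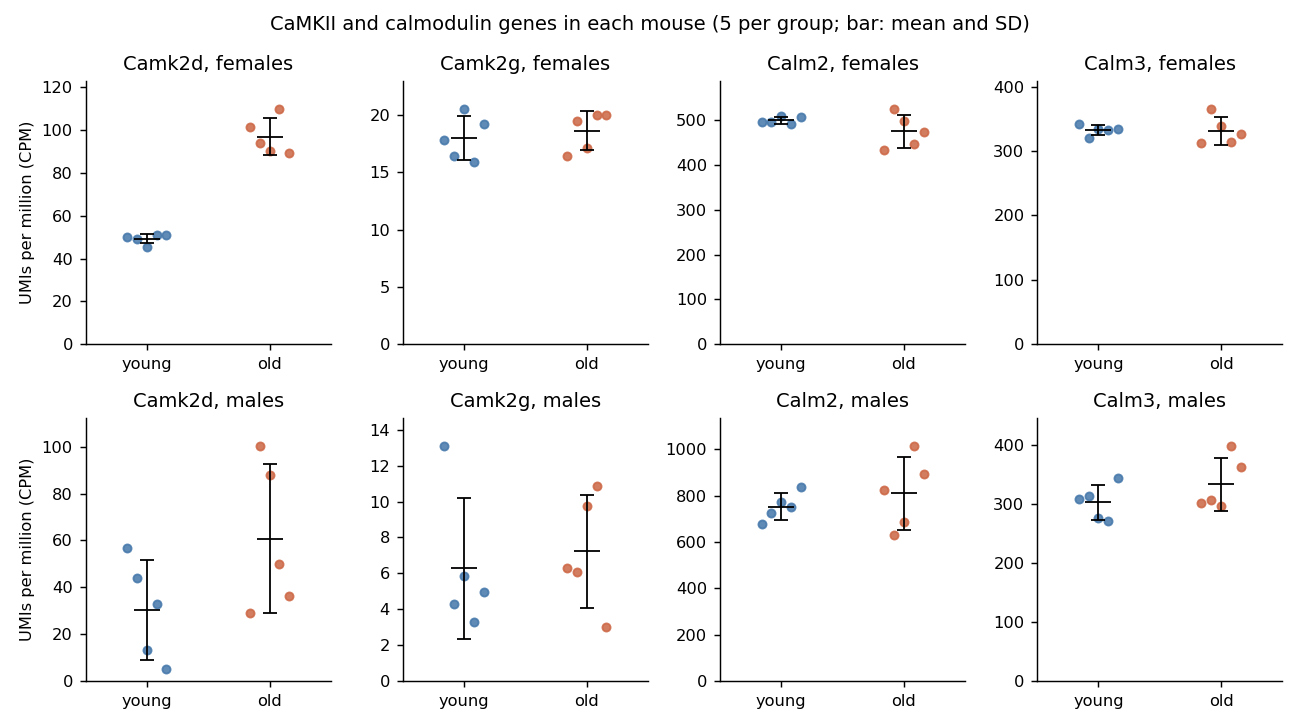
Level of each member (CPM, y axis from 0 and separate for each panel) in each mouse, females above and males below, young in blue and old in orange, with a bar at the mean ± SD (n = 5). Only the panel of Camk2d in females has groups that do not overlap (45.6 to 51.0 against 89.3 to 110 CPM).

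The share of cells that held Camk2d also stood apart in females. The share of cells with at least 1 Camk2d UMI was 39.8%, 35.7%, 35.1%, 38.7% and 36.6% in young females and 64.6%, 60.6%, 60.7%, 65.7% and 68.1% in old females, with no overlap. Cells with 3 or more Camk2d UMIs made up 4.16% of all young and 16.1% of all old female cells, and the highest count in a cell was 8 in both. Cells that had it held 1.49 UMIs on average in young and 2.02 in old females, without overlap. The counts per cell in these 2 sentences were not thinned, and cells of old females held more UMIs in all. The share of all genes without overlap was taken for CPM only (2.83% higher in old females). For shares of cells, thinned or not, and for UMIs per positive cell, the lack of overlap is given without its background. Within these cells the level was 129 ± 6.99 CPM in young and 150 ± 13.9 CPM in old females (SD, n = 5), and there the ages overlapped. A mouse's CPM cannot tell more RNA per cell from more cells that hold it, and at these low counts a cell without a UMI may still express the gene.

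After every cell was thinned to 2000 UMIs, the share fell but the ages stayed apart. Young females then had 11.2%, 9.44%, 10.8%, 10.6% and 8.55% and old females 18.9%, 20.6%, 19.2%, 22.9% and 17.5%. The lowest old female was thus above the highest young one at equal depth. In males the unthinned share was 23.2%, 17.2%, 5.67%, 13.4% and 1.64% in the young and 14.6%, 36.2%, 47.5%, 32.7% and 21.4% in the old, with 3 old males above every young one. Thinned male shares ran from 0 to 13.5% in the young and from 7.07% to 22.6% in the old. For young male 5 the thinned value is 0 of 119 cells, which allows a share of up to 2.52%.

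**Figure D2:**
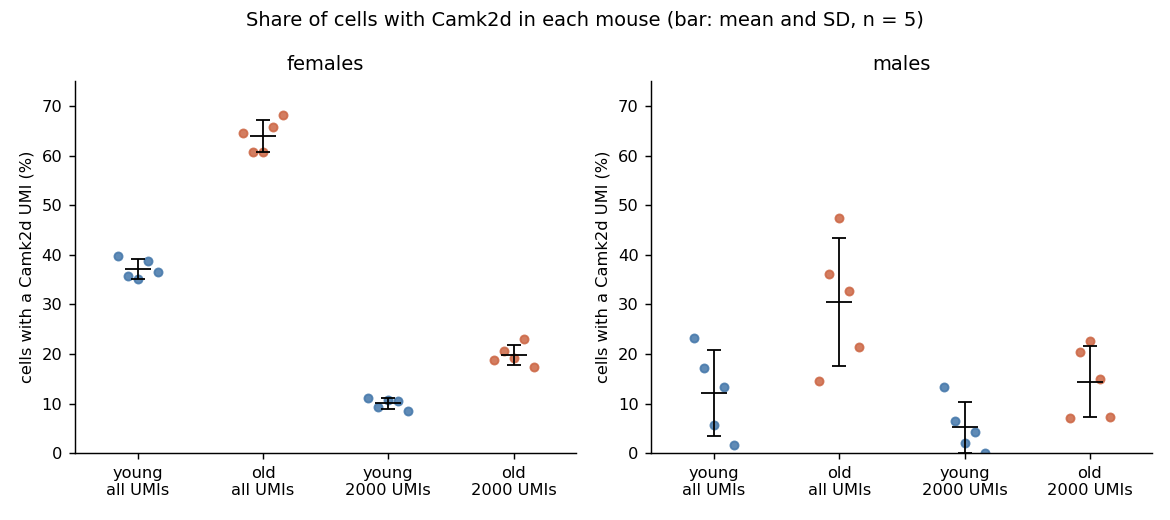
Share of cells with a Camk2d UMI (percent, y axis) in each mouse, with all UMIs and after thinning each cell to 2000 UMIs, young in blue and old in orange, with a bar at the mean ± SD (n = 5). The female groups are apart at both depths, and the male groups overlap at both.

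The other members had shares that overlapped between the ages at both depths. In females Camk2g was found in 17.9% ± 1.56 of young and 20.5% ± 2.77 of old cells, and after thinning in 3.43% ± 0.60 and 4.28% ± 0.40 (mean and SD, n = 5). Calm2 was found in 89.7% of young and 90.4% of old female cells, and Calm3 in 84.3% and 87.2%, as means of 5 mice. Thinned, Calm2 came to 51.3% in both ages and Calm3 to 42.7% in both. In males the shares at all UMIs were 2.95% and 4.77% for Camk2g, 85.8% and 90.5% for Calm2, and 63.0% and 75.2% for Calm3, young before old. Thinned, they were 1.52% and 2.57%, 67.5% and 73.7%, and 40.03% and 44.3% in the same order.

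Cells were clustered within each pool to ask in which monocytes the members lie. NeuMo (neutrophil-like) and DCMo (dendritic cell-producing) monocytes are kinds of Ly6C-high monocyte known from their progenitors. A cluster was given either name where at least 3 of the markers listed for it were among its 10 leading genes. The male NeuMo-like cluster is mixed: its leading genes hold the markers Elane, Mpo and Ctsg but also 5 genes of DNA replication and S phase (Ung, Cdca7, Hells, Cdc6 and Mcm2). The members and the pathway genes were left out of the genes that formed the clusters. The clusters were formed on the same cells they describe, so levels by cluster are a description. In females Camk2d was lowest in the NeuMo-like cluster (led by Mpo, Elane and Ctsg, granule enzymes of early myeloid cells). It was highest in the cluster led by Hpgd and Sirpb1c, which was the largest with 2769 cells, and in the DCMo-like cluster. The leading genes of the female DCMo-like cluster hold the MHC-II genes H2-Eb1, H2-Aa and H2-Ab1 and Cd74, but also the interferon-stimulated genes Ifit3 and Ifit1. Those of the male DCMo-like cluster also hold Ifit3 and Isg15. Both DCMo-like clusters are thus mixed in their leading genes, and levels in DCMo markers and in interferon-stimulated genes were not separated.

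Every old female was above every young one in 5 of the 7 clusters that could be compared. In the largest cluster Camk2d was at 87.5, 82.5, 66.7, 84.2 and 83.2 CPM in young and at 141, 177, 159, 173 and 145 CPM in old females, with no overlap and a ratio of means of 1.97. In the NeuMo-like cluster it was at 20.2, 10.7, 18.9, 11.5 and 11.5 CPM in young and at 33.2, 25.6, 20.98, 28.7 and 36.2 CPM in old females, again with no overlap and a ratio of 1.99. A cluster with a low level and one with a high level thus had much the same ratio of old to young.

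The other 3 clusters had ratios of 2.18 (led by Aspm and Nusap1, genes of mitosis), 1.92 (led by Ccne2 and Cdc6, genes of DNA replication) and 2.68 (led by Hist1h2bc and Ccnb2, with the G2/M marker list no higher there than in other cells), each without overlap. The share of all tested genes with every old female above every young one was 2.43% in the largest cluster, 0.744% in the NeuMo-like cluster, and 2.21%, 1.31% and 1.26% in those 3 in the same order. In the DCMo-like cluster the 4 young females with at least 10 cells had 75.003 to 159 CPM and the 5 old females 120 to 179 CPM, which overlapped (ratio 1.34; 1.76% of all genes did not overlap and were higher). In a cluster of 115 cells led by Pomc and Gh, hormone genes of the pituitary, the ratio was 0.92 with 2 mice per age, where 15.6% of all genes had both old mice above both young ones.

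**Figure D3:**
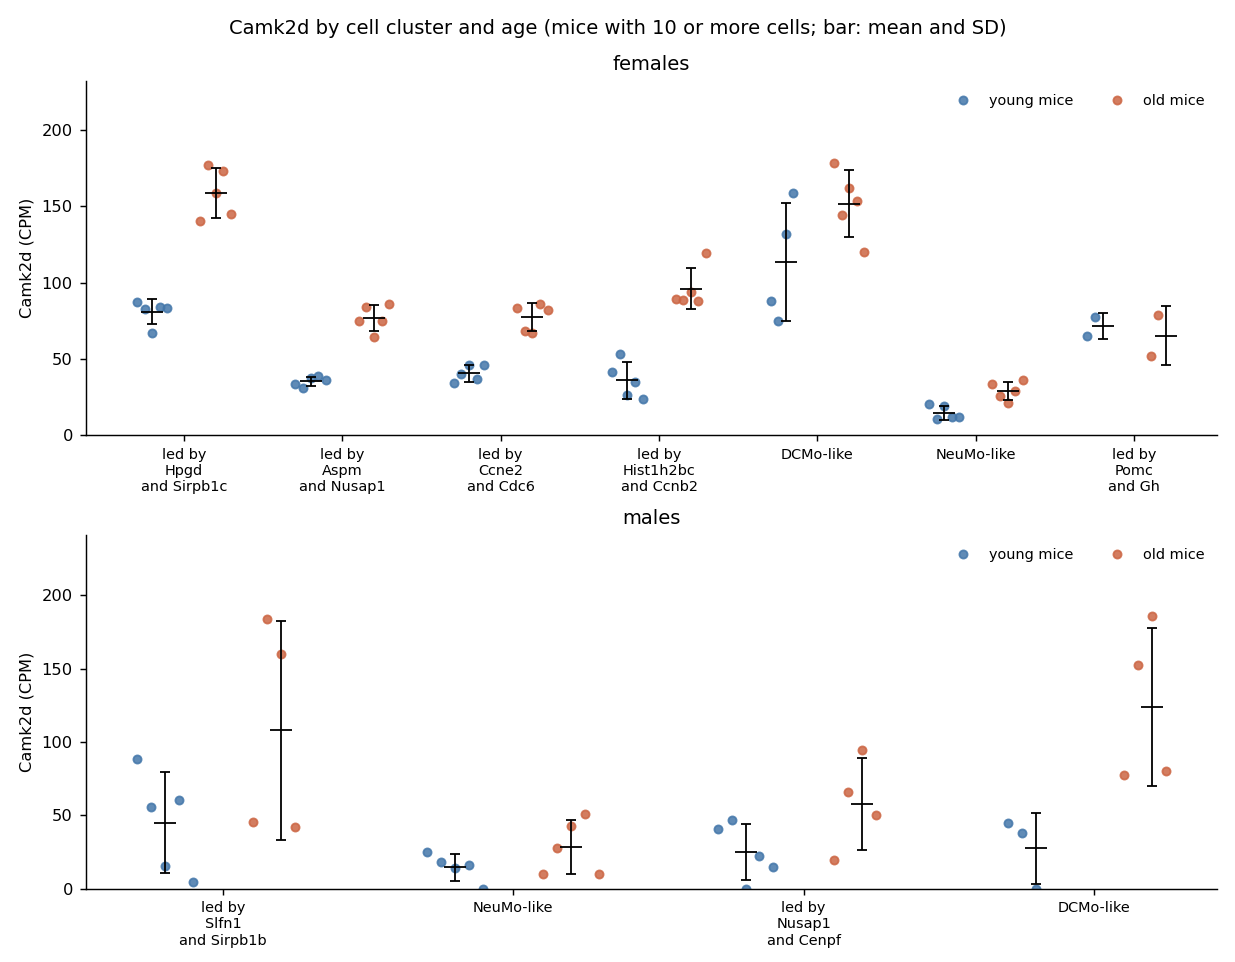
Camk2d level (CPM, y axis from 0) by cluster, females above and males below, each point a mouse with 10 or more cells in the cluster, young in blue and old in orange, with a bar at the mean ± SD. In females the ages are apart in every cluster except the DCMo-like one and the one led by Pomc and Gh, and in males they are apart only in the DCMo-like cluster (3 young and 4 old mice).

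Of the 4 male clusters compared, the mean of Camk2d was lowest at both ages in the mixed NeuMo-like one. That cluster had 14.6 ± 9.12 CPM of Camk2d in young and 28.4 ± 18.7 CPM in old males (SD, n = 5). In the DCMo-like cluster 3 young males had 44.6, 37.6 and 0 CPM and 4 old males had 77.4, 152, 186 and 80.1 CPM, without overlap. There 3.13% of genes had every old mouse above every young one, against 1.27% in the largest male cluster (led by Slfn1 and Sirpb1b), 0.672% in the NeuMo-like one and 1.15% in the one led by Nusap1 and Cenpf, in each of which Camk2d overlapped. Young male 5, lowest in the whole pool, was at 4.70 CPM in the largest cluster and at 14.5 CPM in the one led by Nusap1 and Cenpf. It had 0 of 19 NeuMo-like and 0 of 10 DCMo-like cells with a Camk2d UMI, which allows shares of up to 15.8% and 30.0%.

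For the background of free RNA no cluster is known to lack Camk2d. The 436 NeuMo-like female cells, pooled over mice and ages, had the most UMIs (median 25081) and Camk2d in 35.6% (exact binomial 95% interval 31.1 to 40.2). The largest cluster, pooled likewise, had it in 51.2% (49.3 to 53.1) at a median of 7358 UMIs. These intervals, like those below, treat cells as independent and leave out the spread between mice and the mix of ages. As means of 5 mice, the NeuMo-like share was 28.7% in young and 47.8% in old females, against 38.5% and 68.98% in the largest cluster. The order turned in young female 1 (42.9% against 42.2%) and old female 1 (66.7% against 64.3%). On the means, this pair of clusters went against the direction of depth, but the other female clusters followed no single direction. The clusters led by Aspm and by Ccne2 had 51.8% and 52.8% at medians of 17025 and 15653 UMIs. The DCMo-like cluster had 62.0% at 8104, the one led by Hist1h2bc 36.8% at 8953.5 and the one led by Pomc 24.3% at 4086. What free RNA adds to these shares was not tested. Of 35 cells in a cluster named T or NK cell-like, 57.1% (39.4 to 73.7) had it. Of 15 basophil-like male cells (median 1499 UMIs) 0 had it, which allows a share of up to 21.8%.

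The calmodulin genes were ordered differently over the clusters. Of the clusters compared between the ages, Calm2 was highest in those led by genes of mitosis: in the cluster led by Aspm and Nusap1 it was at 840 ± 19.0 CPM in young and 781 ± 41.7 CPM in old females, against 264 ± 10.1 and 255 ± 13.9 CPM in the largest cluster (SD, n = 5). The male cluster led by Nusap1 and Cenpf had 1505 ± 87.2 CPM in the 5 young and 1473 ± 184 CPM in the 4 old males compared. Calm3 was also highest there in females, with 476 ± 18.2 CPM in young and 447 ± 30.7 CPM in old mice. Both genes overlapped between the ages in every cluster compared, except Calm3 in the female cluster led by Pomc and Gh (2 mice per age). The mean of Camk2g lay between 15.5 and 19.4 CPM in each age and compared cluster of females other than the one led by Pomc and Gh. Single mice in those clusters ran from 4.13 CPM (old female 1, largest cluster) to 34.8 CPM (old female 4, cluster led by Hist1h2bc and Ccnb2).

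Counts of 6 surface antibodies in the female cells gave a readout that did not choose the members. Within each of the 10 females, cells were split by the count of an antibody, and the upper tercile was set against the lower (24 pairs of member and antibody, two-sided exact sign-flip permutation test over mice, Benjamini-Hochberg adjusted). CD11b is an integrin chain that rises as monocytes mature, CD115 the receptor for the growth factor CSF1, and Ly6C a surface antigen of classical monocytes. The sort was gated on all 3, so the terciles lie within those gates. In all, 9 of the 24 pairs passed. Antibody counts were low for CD115 (median 4 per cell) and Flt3 and CD11c (median 2), and ties were split at random.

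Camk2d rose with surface CD11b. In young females the lower tercile had 28.2, 32.6, 38.1, 33.5 and 32.5 CPM and the upper tercile 81.1, 69.9, 43.2, 69.0 and 74.3 CPM. In old females the lower tercile had 55.5, 64.3, 65.9, 76.5 and 61.6 CPM and the upper 141, 125, 128, 148 and 125 CPM. The upper tercile was higher in 10 of 10 mice, with young female 3 the smallest step, and the mean log2 difference was 1.01 ± 0.34 (SD, n = 10; exact permutation p = 0.00195, the smallest that 10 mice allow; adjusted p = 0.0078). The upper tercile of the young females overlapped with the lower tercile of the old ones.

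Camk2d was lower where CD115 was high, by 0.56 ± 0.34 on the log2 scale with 85.1 CPM in the lower and 61.0 CPM in the upper tercile on average (lower in 10 of 10 mice, n = 10; exact permutation adjusted p = 0.0078). This difference ran from -1.11 to -0.56 in young and from -0.65 to -0.12 in old females. Those ranges overlapped, and whether the ages differ in it was not tested. With cells thinned to 2000 UMIs the CD115 call was lost (adjusted p = 0.12). With Flt3, CD11c, MHC-II and Ly6C its mean log2 differences lay between -0.08 and 0.15, and none of these passed. The one with CD11c (0.15, higher in 9 of 10 mice, exact permutation adjusted p = 0.11) passed when young female 3 was left out (0.20). With the antibody taken as a centred log ratio per cell, the difference with Ly6C was -0.37 and passed (exact permutation adjusted p = 0.016, n = 10).

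Calm2 and Calm3 went the other way. With Ly6C, Calm2 was higher by 0.44 ± 0.14 and Calm3 by 0.26 ± 0.11 on the log2 scale, and with CD115 by 0.31 ± 0.10 and 0.16 ± 0.10, each in 10 of 10 mice (SD, n = 10; exact permutation adjusted p = 0.0078 for each). The call of Calm3 with CD115 was lost with thinned cells and with the centred log ratio (adjusted p = 0.094). With CD11b both were lower, Calm2 by 0.26 ± 0.15 in 9 mice (exact permutation adjusted p = 0.013, n = 10) and Calm3 by 0.24 ± 0.20 in 8 mice (exact permutation adjusted p = 0.023, n = 10). Calm2 was also higher with surface MHC-II, by 0.19 ± 0.19 in 9 of 10 mice (exact permutation adjusted p = 0.026, n = 10), a call lost with cells thinned to 2000 UMIs (adjusted p = 0.76), with the centred log ratio (log2 difference 0.028, adjusted p = 0.78) and without young female 1, 4 or 5 or old female 2. Camk2g passed with none of the 6 antibodies, its mean log2 differences lying between -0.15 and 0.05.

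The terciles differed in cell clusters and in depth as well. The upper CD11b tercile held 0.60% to 2.44% NeuMo-like cells and the lower one 9.92% to 33.8%, while the largest cluster made up 55.9% of the upper and 18.2% of the lower on average. DCMo-like cells made up 17.3% of the upper and 1.78% of the lower CD11b tercile on average. Their share was lower in the upper tercile in 0 mice and reached 60.3% there in old female 1. Median UMIs per cell were 7036 to 10222 in the upper and 9968.5 to 20090 in the lower CD11b tercile. Depth ran the other way for CD115 (10353.5 to 18634 in the upper, 6990.5 to 10010 in the lower) and Ly6C (10878.5 to 18162 and 6998 to 11570). The largest cluster made up 31.5% of the upper and 43.1% of the lower CD115 tercile on average, and 30.5% and 40.8% for Ly6C. NeuMo-like cells made up 10.9% and 4.23% for CD115 and 8.89% and 5.26% for Ly6C. Within the largest cluster alone (9 mice with at least 30 such cells, a comparison chosen after seeing the data), the log2 difference of Camk2d with CD11b was 0.16 ± 0.41, higher in 7 of 9 mice, and 0 of the 24 pairs passed. There Calm2 had the opposite sign with CD11b (0.17 ± 0.27). The part of cluster makeup and depth in the antibody differences was not tested further.

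**Figure D4:**
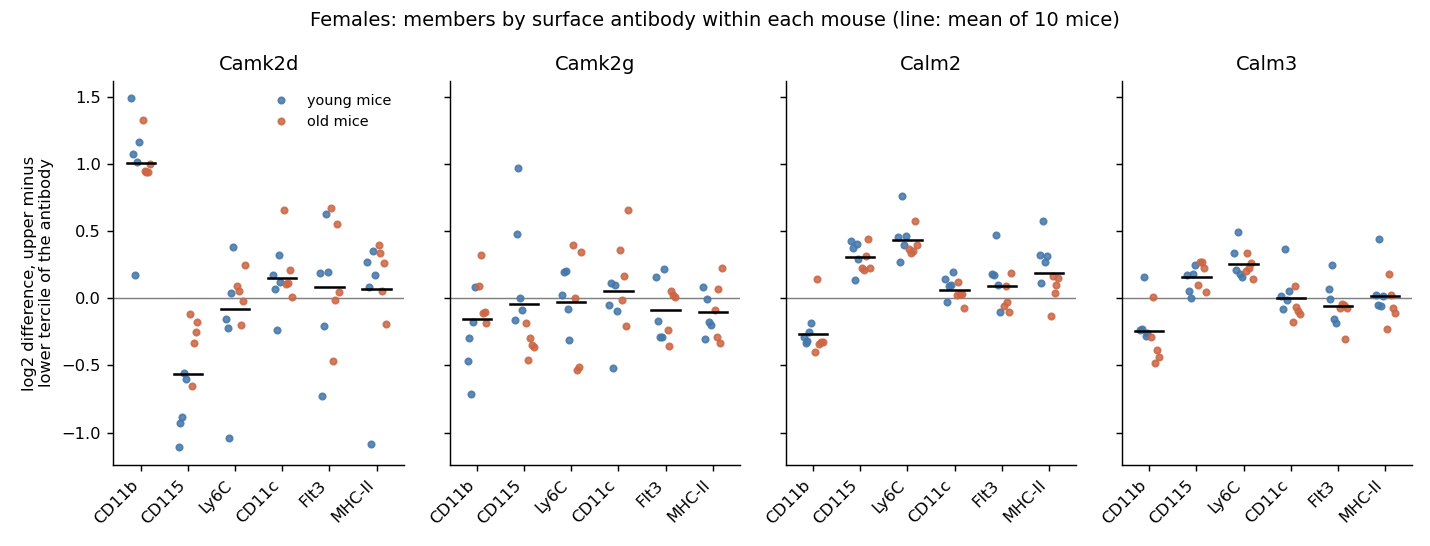
Log2 difference of each member between the upper and lower tercile of 6 surface antibodies (y axis, one point per female, young in blue and old in orange, line at the mean of 10 mice). For Camk2d with CD11b all 10 points lie above 0 (0.18 to 1.49), and with CD115 all lie below 0.

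A second split used RNA of the MHC-II genes H2-Aa, H2-Ab1 and H2-Eb1, which present antigen to T cells, in cells thinned to 2000 UMIs. Cells with any of these UMIs were set against cells with none within each mouse (8 pairs of member and pool, exact sign-flip permutation test). Only Calm2 in females passed, with 424 ± 35.2 CPM in cells without and 354 ± 67.3 CPM in cells with MHC-II RNA (log2 difference -0.28 ± 0.26, higher in 1 of 10 mice, exact permutation adjusted p = 0.047). Without thinning its sign turned (0.080, adjusted p = 0.16), and leaving out any of 8 of the 10 females (all but young females 1 and 2) ended the call. With HTODemux singlets in males, or without young male 2, Camk2g, Calm2 and Calm3 in males and Calm3 in females passed as well, each lower in cells with MHC-II RNA. For Camk2g in males the main split had 9.53 CPM in cells without and 5.05 ± 15.2 CPM in cells with it (SD, n = 9). All 4 old males had 0 CPM of Camk2g in cells with MHC-II RNA. A count of 0 in a class of 9 to 13 cells, the size in young males 2 to 5, allows 115 to 167 CPM. The classes of the old males were larger, so a 0 there allows less, and that limit was not computed. With so few cells and UMIs, the male Camk2g call cannot tell a lower level from too few cells. Camk2d had no call by MHC-II RNA in females (log2 difference 0.02 ± 0.43, exact permutation adjusted p = 0.90, n = 10). Nor had it one in males (log2 difference -1.25 ± 2.87, higher in 4 of 9 mice, exact permutation adjusted p = 0.29).

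The age difference of Camk2d was present on both sides of that split in females. Among cells without MHC-II RNA the young females ran from 50.6 to 69.1 CPM and the old from 93.8 to 136 CPM, without overlap (ratio 2.07). Among cells with it they ran from 37.9 to 80.6 CPM and from 73.9 to 163 CPM, which overlapped (ratio 2.14). Male cells without MHC-II RNA had 0 to 81.2 CPM in the young and 15.6 to 114 CPM in the old, which overlapped (ratio 1.89). The 0 is young male 5, where it allows 13.9 CPM. In males, cells with MHC-II RNA were few (9 to 42 per mouse); there young male 1 had 29.4 CPM, the other 4 young males had 0 Camk2d UMIs, and the 4 old males had 88.2, 119, 179 and 68.2 CPM. These values did not overlap, but with so few cells a count of 0 allows 115 to 167 CPM, which lies within the range of the old males. The share of all genes with every old mouse above every young one was not taken within these classes. Over all cells it was 2.83% in females and 0.99% in males. The lack of overlap within a class is thus given without its background. Lists of marker genes moved with age beside Camk2d in females: the DCMo list summed to 493 to 976 CPM in young and 1038 to 7952 CPM in old mice (4 of 5 genes called higher, 0 at zero), and the mature Ly6C-high list to 5403 to 5699 and 5770 to 7687 CPM (3 of 6 called higher). The 13 other lists overlapped in females, and all 15 overlapped in males. Their part in the Camk2d difference was not tested, beyond the within-cluster and within-class values above.

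Of 75 other genes of calcium and calmodulin signalling, 53 could be tested in females and 34 in males. In females 0 were called higher and 3 lower in old mice, beside 3.42% of all genes called in either direction and 1.4% called lower. Their median log2 fold change was -0.04 (all genes -0.0012). An unadjusted edgeR p of 0.05 was passed by 15 of the 53, a larger share than the 16.5% of all genes. In males 0 were called by edgeR and by DESeq2, with a median of -0.10 (all genes 0.0079). There 8 of the 34 had an unadjusted edgeR p below 0.05, a larger share than the 10.9% of all genes. Whether the lists differ from all genes as a set was not tested.

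The 3 genes that fell in old females have separate roles. Orai3, a pore subunit of store-operated calcium channels, was at 55.3, 53.8, 46.7, 54.1 and 52.2 CPM in young and at 41.5, 49.5, 45.5, 42.7 and 42.9 CPM in old females, with young female 3 inside the old range (log2 fold change -0.25, SE 0.06, edgeR adjusted p = 0.024). Iqgap2, a scaffold that binds calmodulin, was at 130, 131, 143, 127 and 133 CPM in young and 114, 115, 119, 114 and 120 CPM in old females, without overlap (log2 fold change -0.18, SE 0.04, edgeR adjusted p = 0.038). Mef2c, a transcription factor whose repressors are targets of CaM kinases, was at 86.2, 82.8, 72.1, 72.1 and 72.5 CPM in young and 61.0, 65.0, 61.1, 61.3 and 71.8 CPM in old females, without overlap (log2 fold change -0.26, SE 0.07, edgeR adjusted p = 0.043). In males the ages overlapped for all 3 genes. The male log2 fold changes were -0.10 for Orai3, -0.04 for Iqgap2 and -0.22 for Mef2c (edgeR adjusted p = 0.90, 0.95 and 0.73). Of all genes tested in females, 2.91% had every old mouse below every young one, against 1.13% in males. The call of Orai3 was lost without young female 1, 2, 4 or 5 or old female 1, those of Iqgap2 and Mef2c without any single female other than old female 5, and all 3 were lost with cells thinned to 2000 UMIs.

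By role, the other CaMKII genes were near 0: Camk2a and Camk2b each averaged at most 0.605 CPM in a group. The CaMKII inhibitor Camk2n2 was the highest of its list in females (1.45 CPM in young, 1.91 in old; edgeR adjusted p = 0.55), and Camk2b was the highest in males.

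Among 6 other calmodulin-dependent kinases tested in females, 0 were called. Camkk2, the kinase that activates CaMKI and CaMKIV and the highest of that list in both pools, went from 151 ± 7.74 to 132 ± 14.8 CPM in females (log2 fold change -0.19, SE 0.06, edgeR adjusted p = 0.12) and from 154 ± 16.2 to 126 ± 20.1 CPM in males (-0.27, SE 0.12, edgeR adjusted p = 0.40; SD, n = 5 for each). Camk1 and Camk1d also had negative values in both pools, for Camk1 -0.28 in females and -0.70 in males and for Camk1d -0.18 and -0.51, none past the threshold.

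The calcineurin list, the phosphatase arm of calmodulin signalling, had 0 of 9 called in females. Its most abundant gene, Ppp3ca, was at 110 ± 4.44 CPM in young and 99.4 ± 8.20 CPM in old females (SD, n = 5; log2 fold change -0.13, edgeR adjusted p = 0.24). The calcium pump gene Atp2b1 led the list of release, entry and pumps, of which 22 were tested in females and only Orai3 was called (Atp2b1 -0.08 in females, edgeR adjusted p = 0.56; -0.34 in males, edgeR adjusted p = 0.30). The scaffold Iqgap1 was level in females (-0.01, edgeR adjusted p = 0.98) and at -0.21 in males (edgeR adjusted p = 0.45). Marcksl1, of the same list, was at 0.40 in females (edgeR adjusted p = 0.18) and 0.74 in males (edgeR adjusted p = 0.23). It ran from 27.3 to 51.2 CPM in young and from 52.3 to 106 CPM in old males, without overlap, beside 0.99% of all genes. Mef2a, highest of the transcription regulators in females, was at -0.09 (edgeR adjusted p = 0.64), and Atf1, highest in males, at -0.17 (edgeR adjusted p = 0.72).

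**Figure D5:**
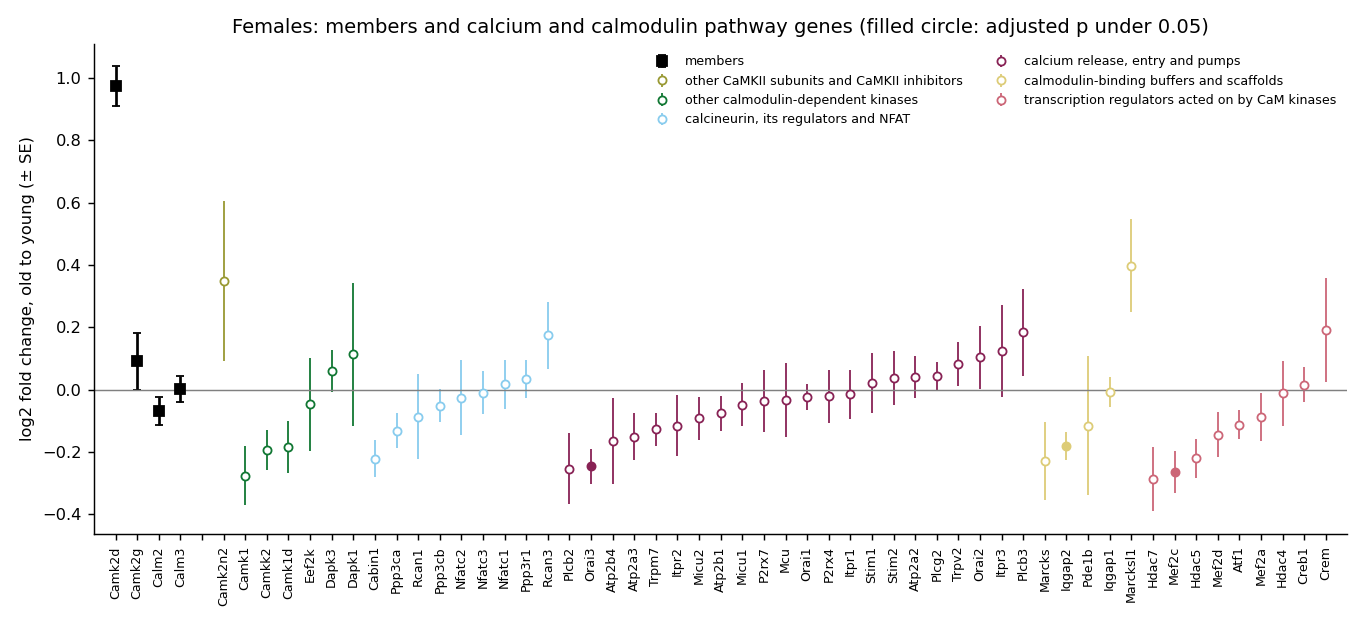
Log2 fold change of old to young females (y axis, ± SE) for the 4 members (squares) and the pathway genes tested and reported here, grouped by list, where filled circles mark the 3 genes with an adjusted p under 0.05. Camk2d, which was chosen because of its rise in old mice, is at 0.97. Its place above the other genes, the highest of which is Marcksl1 at 0.40, follows from that choice.

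The genes whose level over mice was most like that of Camk2d were Larp1, Tspo, Cib1, Ctsc and Eps8. Likeness was the lower of the Pearson correlations of log2 CPM over the 10 males and over the 10 females, among 5650 genes tested in both pools. It was 0.86 for Larp1 and Tspo, 0.83 for Cib1, 0.82 for Ctsc and 0.81 for Eps8. The mice of both ages enter it, so a gene with an age difference scores high by that alone. With the age means removed, Larp1 had 0.80 in males and 0.63 in females and Eps8 0.77 and 0.64. Ctsc had 0.76 and 0.31, Cib1 0.79 and 0.086, and Tspo 0.83 and -0.56. Within an age the likeness in females was thus weak or absent for Ctsc and Cib1 and opposite in sign for Tspo.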

How the data were processed

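The authors deposited whole-number UMI counts per gene and cell barcode for each pool, with hashtag counts and, in females, counts of 6 surface antibodies, without normalization. Per their methods and the submitters' notes, reads were aligned with STAR 2.5.1 to mm10 and counted with Cell Ranger 4.0.0, whereas the file headers give 7.0.0 for males and 3.1.0 for females. Whether intronic reads were counted is not given in the sources used here, and it can set the level of a long gene such as Camk2d differently in the pools. The number of deposited per-sample columns not used was 0.

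Female cells were HTODemux singlets (Seurat 5.3.0) with over 200 genes and under 5% mitochondrial UMIs, 6641 of 10433 barcodes, so that hashtag doublets were removed. All 1227 male barcodes were assigned to their leading hashtag, because in the 401 called doublets that hashtag held a median of 95.1% of hashtag counts. Summed counts were tested with edgeR 4.0.16 (TMM, filterByExpr, quasi-likelihood test) over all genes, with two-sided p values, Benjamini-Hochberg adjustment and a threshold of 0.05, and DESeq2 1.42.0 was an alternative. On counts simulated from the mean levels and library sizes of these mice, the fit recovered 84.8% of genes changed by 1 on the log2 scale in females (10015 genes). In males it recovered 74.2% (5452 genes). The simulation gave every gene the same fixed spread between mice, not one estimated from these data. These rates therefore check the fit and do not give the share of real changes that it would find here. Terciles and MHC-II classes were compared on log2(CPM + 1) by exact sign-flip permutation. Classes needed 5 cells and clusters 10 cells per mouse. Coding sequences are from GENCODE M21 on GRCm38, read with biopython 1.88.

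The members, pathway lists and markers were chosen with earlier results of these data known. Genes named were the 4 members, each pathway gene called in either pool, the gene of each list with the highest mean CPM in each pool, and the 5 genes most like Camk2d; 1 list gene is counted but not reported here. Camk1, Camk1d, Camk2a, Marcksl1 and the genes leading the clusters were named after their values were seen. Leaving out the clusters led by genes of other cells and splitting the largest cluster by antibody were alternatives chosen after seeing the data.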

Additional observations from a re-analysis of the deposited data

Results flagged for a closer look

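Of 32 groups of 5 mice looked at for the members' levels and shares, 1 held a mouse far from the others by Dixon's criterion, where chance flags about 1 in 20. Camk2g in young male 1 was at 13.1 CPM (12 UMIs), against 5.82 CPM in the nearest of the other young males.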

How the results depend on the processing

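The log2 fold change of Camk2d in females was 0.79 when every barcode was given to its leading hashtag and 1.10 with cells thinned to 2000 UMIs, and 0.92 to 1.004 with single mice left out. In males it was 0.88 to 1.11 over 7 settings and 0.65 (without old male 2) to 1.34 (without young male 1). The old minus young share of Camk2d-positive cells in females (26.7 percentage points) was 9.70 with thinned cells, 22.5 with leading hashtags and 23.7 for cells with 2 or more UMIs; in males (18.3) it was 5.89 for 2 or more UMIs. The genes called in females (345) came to 153 with thinned cells and 194 to 522 without single mice (522 without old female 4). In males (0) they came to 22 with DESeq2, 95 with no filter on low counts, and 0 to 39 without single mice (39 without old male 1, 24 without old male 4). Pathway genes called in females (3) came to 6 with leading hashtags, 0 with thinned cells and 0 to 5 without single mice (0 without young female 1, 2, 4 or 5 or old female 1; 5 without old female 5), and in males (0) to 1 with no filter and 0 to 1 without single mice (1 without old male 1). Pairs of member and antibody past the threshold (9) came to 6 to 9 in the other settings, 8 to 10 without single mice and 0 within the largest cluster, where the signs of Calm2 with CD115 (-0.031), Ly6C (-0.0085) and CD11b (0.17) and of Calm3 with CD115 (-0.050) turned. Pairs past the MHC-II RNA split (1) came to 0 without thinning, 5 with HTODemux singlets and 0 to 5 without single mice (5 without young male 2, 2 without young female 2), and Calm2 in females turned to 0.080 without thinning. The cause of these shifts was not tested. Leaving out the clusters of other cells, added after seeing the data, gave 0.99 for Camk2d in females, 366 genes called in females and 3 pathway genes. No paired analysis was possible because no label ties a young mouse to an old one. Depth limits the male values of Camk2d and Camk2g, which rest on few UMIs per mouse.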
